A study of Mus musculus with 2 samples.

Results

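Accessible chromatin was described at 10 genes for C-type lectin receptors of myeloid cells: Clec4a1, Clec4a2, Clec4a3, Clec4d, Clec4e, Clec4n, Clec7a, Clec12a, Clec1b and Clec9a. They were chosen by name, not by a measured value, although earlier results of these data were known, and all lie on chromosome 6. The comparison set, called all genes below, held 21756 genes. These were the annotated protein-coding genes of the autosomes and the X chromosome, with the members. A region was assigned to a gene when its summit lay in the gene body or within 30 kb of it. By that rule 55 regions belonged to the 10 genes, of 75148 regions in the series-level list, which was made from the reads of both replicates. The assay was ATAC-seq, in which the Tn5 transposase cuts open DNA so that accessible stretches collect reads. The cells were granulocyte monocyte progenitors (GMP), the marrow progenitors of neutrophils and monocytes, and 50000 went into each library. They came from adult male C57BL/6J mice of 5 to 6 weeks, and no genetic change or treatment is given in the labels. The 2 libraries are biological replicates of 1 group and carry the same donor label with separate biosample labels, so no contrast between conditions exists and every value here is a description. How the cells were isolated was not given in the sources used here, and instruments are named for replicate 1 alone.

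C-type lectin receptors are surface proteins with which phagocytes, dendritic cells and platelets bind sugars, glycolipids and products of dead cells. Several of the activating ones signal through the kinase Syk and the adaptor Card9 to NF-kappaB. They do so either from a tyrosine motif in their own tail or through the partner chain encoded by Fcer1g. The inhibitory ones carry a different tyrosine motif that recruits the phosphatases encoded by Ptpn6 and Ptpn11. The genes sit in the natural killer gene complex and beside it, among many related lectin-like genes, and several arose as tandem copies. In myeloid cells, enhancers and promoters are commonly bound by PU.1, C/EBP and RUNX factors.

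The neighbouring Clec4a genes included the highest values at the members and share letters within 50 bp of the summit. The sequences around the summits of their promoters are therefore shown first. All are from mouse build GRCm38.p6 (mm10), plus strand, written 5′ to 3′, and reach 50 bp to either side of the summit. A window with more than 30 bp of annotated untranslated sequence was shortened at its 3′ end. Capitals mark the 12 bp run that the 4 windows share. The windows are chr6:122921576-122921676 for Clec4a1, chr6:122952541-122952641 for Clec4a3 and chr6:123123264-123123345 for Clec4a2. Clec4a4, at chr6:122990041-122990141, is not a member but its promoter lies in the window of Clec4a3.
Clec4a1: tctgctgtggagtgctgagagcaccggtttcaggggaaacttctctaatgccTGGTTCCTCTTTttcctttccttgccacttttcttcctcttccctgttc
Clec4a3: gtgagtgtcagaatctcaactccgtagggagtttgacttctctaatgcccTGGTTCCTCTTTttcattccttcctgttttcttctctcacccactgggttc
Clec4a4: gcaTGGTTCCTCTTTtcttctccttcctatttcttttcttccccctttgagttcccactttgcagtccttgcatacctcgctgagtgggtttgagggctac
Clec4a2: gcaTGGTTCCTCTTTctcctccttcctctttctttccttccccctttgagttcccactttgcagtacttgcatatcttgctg

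The run TGGTTCCTCTTT holds, read on the other strand, the 6-letter PU.1 core GAGGAA. It occurred within 50 bp of 50 of the 75148 summits of the whole list (0.0665%), counting these 4. It began 2 bp after the summit in Clec4a1 and at the summit itself in Clec4a3. In Clec4a4 and Clec4a2 it began 47 bp before the summit. The Clec4a2 and Clec4a4 windows were identical at 94 of 100 aligned bases before shortening, and the Clec4a1 and Clec4a3 windows at 45 of 48. The last pair shared a run of 17 bp that no other summit window of the list held. Each run was picked as the longest that these windows share, so its rarity in the list is not a test.

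The Clec4n and Clec4d promoters are printed because these neighbours shared another run, in capitals, yet had unlike folds of 7.15 and 3.65. Their windows are chr6:123229786-123229872 and chr6:123262032-123262132, plus strand.
Clec4n: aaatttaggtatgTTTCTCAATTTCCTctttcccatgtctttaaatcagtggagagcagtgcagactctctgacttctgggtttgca
Clec4d: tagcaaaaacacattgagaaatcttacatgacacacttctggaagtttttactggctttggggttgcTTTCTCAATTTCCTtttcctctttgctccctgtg

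The run TTTCTCAATTTCCT, picked as the longest this pair shares, lay within 50 bp of 3 summits of the whole list (0.00399%), counting this pair. It began 37 bp before the Clec4n summit and 17 bp after the Clec4d summit, and 31 of 34 aligned bases were identical.

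A further set shows the promoters of Clec4e and Clec7a, the region nearest to the start of Clec9a, and the strongest region of the second gene block, which lies in an intron of Clec1a. Capitals mark exact matches to the consensus letters searched. These were PU.1 GAGGAAG with its core GAGGAA, CEBP TTGCNNAA, RUNX TGTGGTT, AP-1 TGANTCA, IRF GAAANNGAA and CTCF AGGGGGC, each on both strands. The core lies within the PU.1 consensus, so their matches overlap. Clec4e is shown on its minus strand at chr6:123289898-123289998 and Clec7a on its minus strand at chr6:129472789-129472889. The Clec9a region is at chr6:129407459-129407559 and the Clec1a intron region at chr6:129434384-129434484, both on the plus strand.
Clec4e promoter: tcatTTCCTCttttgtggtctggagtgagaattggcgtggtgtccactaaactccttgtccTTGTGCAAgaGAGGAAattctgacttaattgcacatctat
Clec7a promoter: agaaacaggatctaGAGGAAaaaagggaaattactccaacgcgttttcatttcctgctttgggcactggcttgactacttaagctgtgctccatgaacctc
Clec9a upstream region: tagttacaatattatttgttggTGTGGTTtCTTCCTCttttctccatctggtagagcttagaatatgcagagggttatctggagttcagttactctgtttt
Clec1a intron region: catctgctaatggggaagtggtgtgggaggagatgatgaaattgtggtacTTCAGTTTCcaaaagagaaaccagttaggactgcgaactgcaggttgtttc

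The Clec4e window held a CEBP match followed by a PU.1 core, and another core near its 5′ end. Clec7a had only a core. The region near Clec9a held a RUNX match and a PU.1 match with a single base between them. The Clec1a intron region held an IRF match.

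The members formed 2 blocks. Clec4a1, Clec4a3, Clec4a2, Clec4n, Clec4d and Clec4e had 26 regions in windows that together spanned 325.6 kb. Clec12a, Clec1b, Clec9a and Clec7a had 29 regions in 190.1 kb. The second block was the denser, with 15.3 regions per 100 kb against 7.99 in the Clec4 block. The Clec4 block had the higher folds, with a median of 9.74 against 8.08. Fold is the authors' own fold enrichment for each row of the list, and its denominator was not given in the sources used here.

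**Figure D1:**
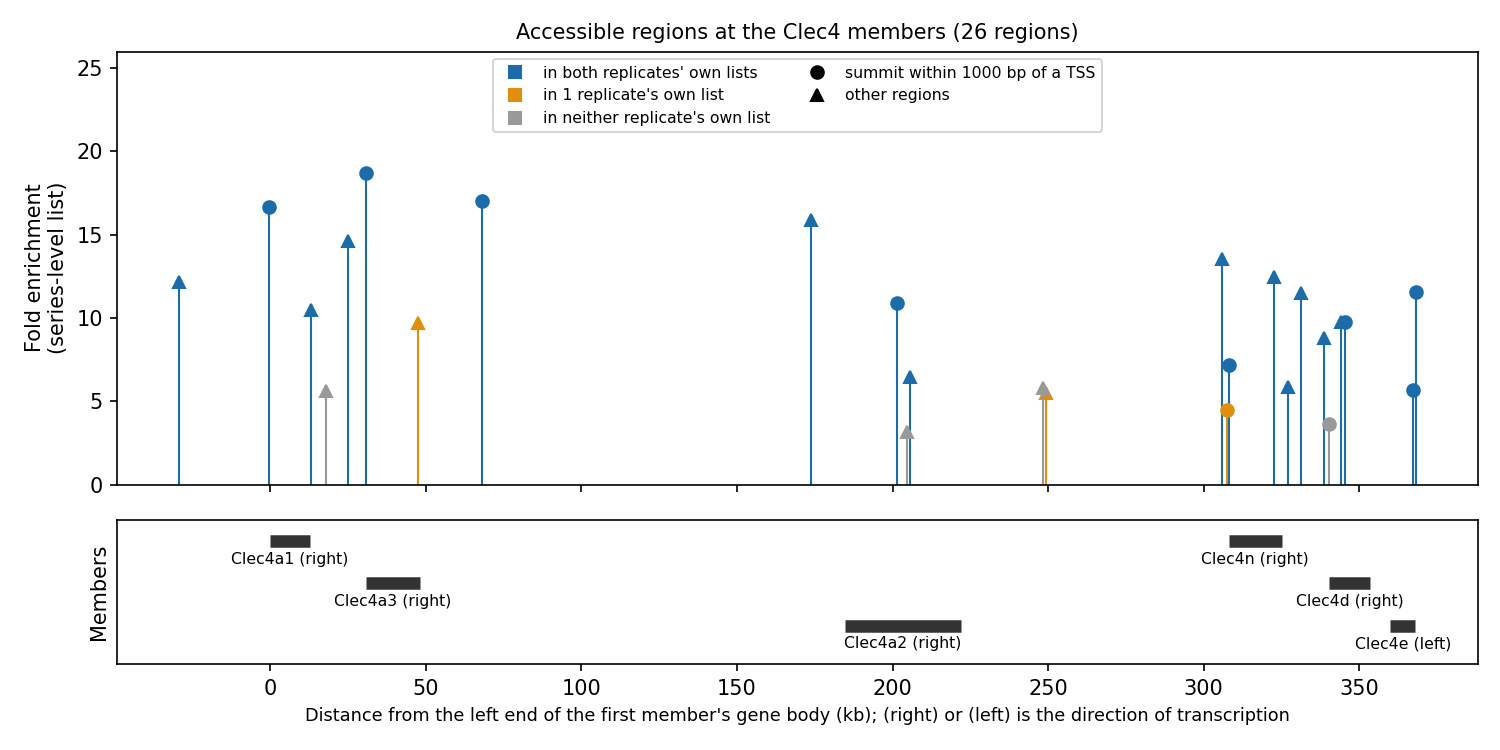
Fold enrichment (vertical axis, series-level list) of the 26 regions at the Clec4 members against distance in kb from the left end of Clec4a1; circles have a summit within 1000 bp of a transcription start site (TSS), triangles do not, and colour gives presence in the replicates' own lists. The highest stems stand at the promoters of Clec4a3 (18.7), Clec4a4 (17.0) and Clec4a1 (16.7), and the empty stretch left of Clec4a2 lies mostly outside the member windows.

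**Figure D2:**
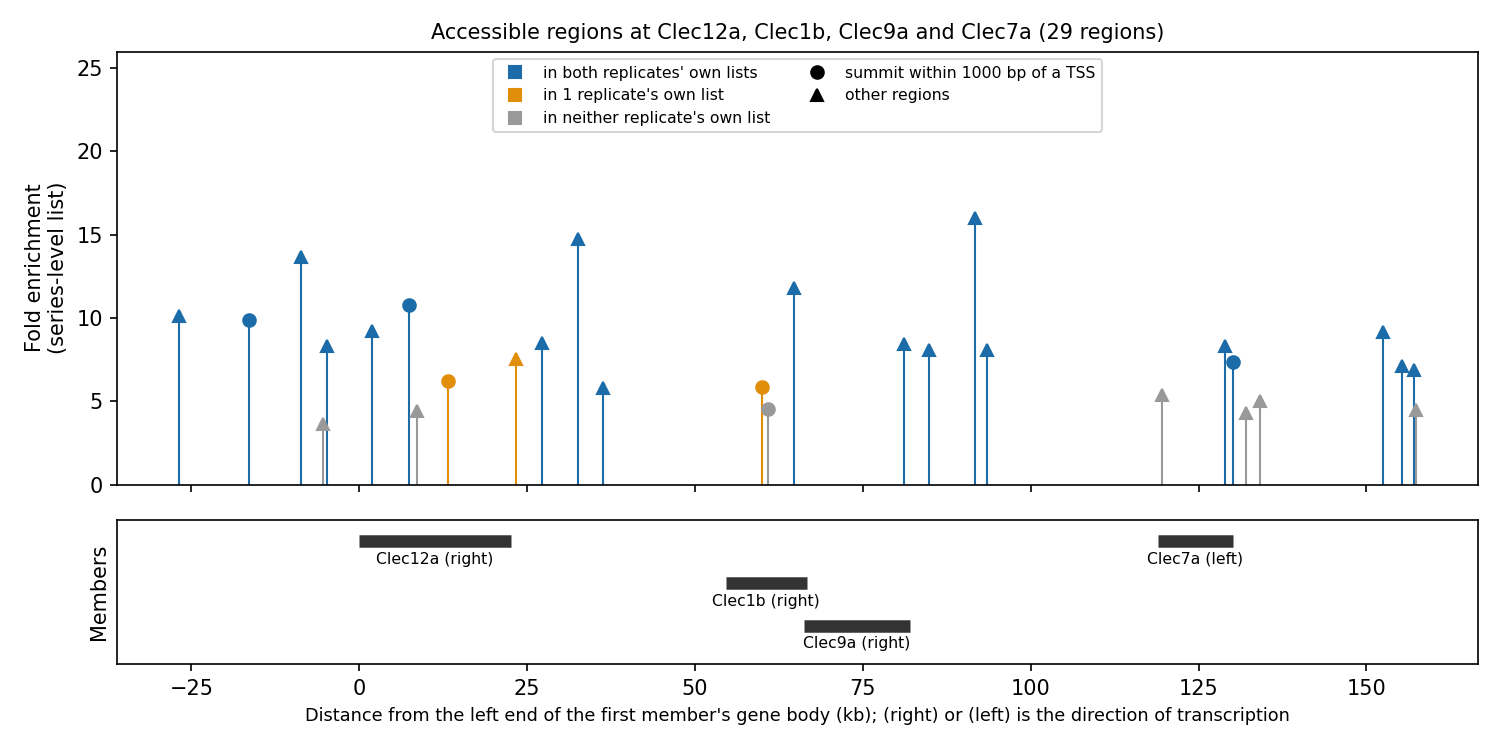
The same for the 29 regions at Clec12a, Clec1b, Clec9a and Clec7a, with distance from the left end of Clec12a. The highest stem, at 16.0, is in an intron of Clec1a, and the promoter regions of Clec12a (10.8) and Clec7a (7.36) are lower than several distal regions.

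Over both blocks the members had 10.7 regions per 100 kb, against 2.76 for the whole list over the chromosomes. Regions covered 5.10% of the member windows and 1.51% of the chromosomes. The genome holds long stretches without genes, so the comparison with other genes by the same rule is closer. Every member had at least 6 regions in its window, and 54.3% of all genes had fewer than 6. At least 1 region lay in the window of every member and of 84.3% of all genes. The median was 8.5 regions per member window and 5.0 per window over all genes. Per 100 kb of window the medians were 11.4 for the members and 5.41 for all genes. Such a density was not particular to the members. Marker genes, described below, had medians of 13.1 (late neutrophil), 12.9 (GMP), 11.2 (monocyte and macrophage) and 10.6 (dendritic cell). The medians were 9.84 for megakaryocyte and platelet markers, 3.92 for B cell markers and 2.82 for NK and T cell markers. Windows of neighbours overlap, and 23 of the 55 regions were counted in 2 or more member windows, 8 of them in 3.

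Clec12a had 13 regions in its window, more than 92.2% of all genes. Clec7a had 11, and Clec4n and Clec1b had 10 each. Clec4d had 9, Clec9a had 8 and Clec4e had 7. Clec4a1, Clec4a3 and Clec4a2 had 6 each, a number that 54.3% of genes fall below. Clec4a3 and Clec4a1, which had the highest promoter folds, were thus among the members with the fewest regions. Per 100 kb, Clec12a (15.7) and Clec7a (15.5) were the highest members and Clec4a2 (6.15) the lowest. Clec4a2 has the longest window, at 97.6 kb.

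**Figure D3:**
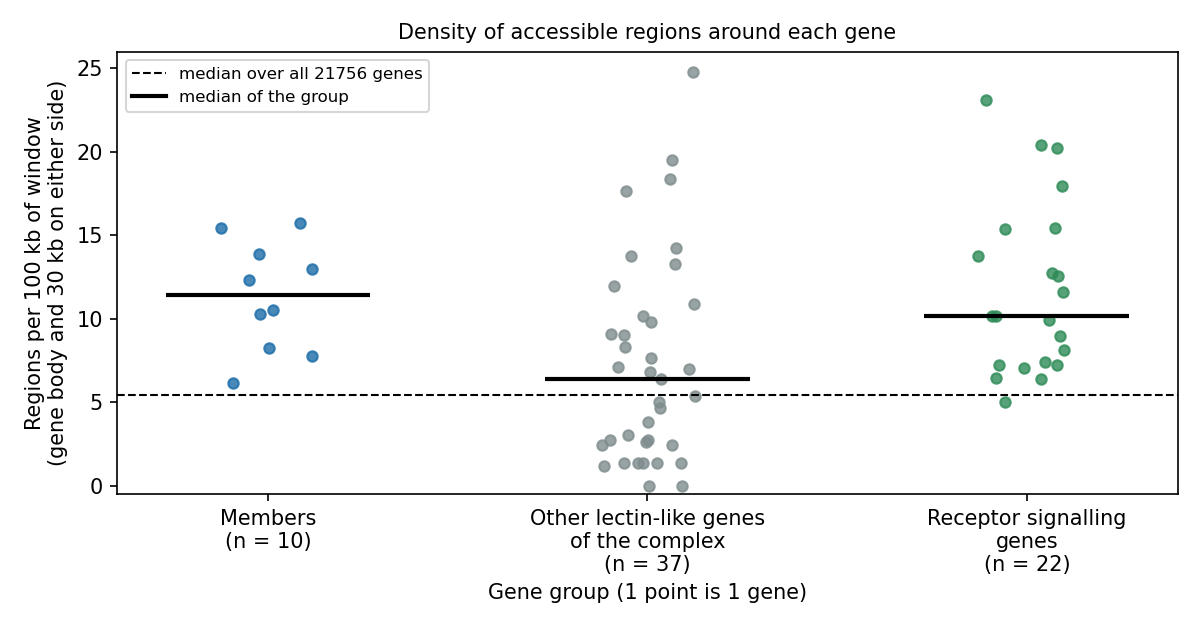
Regions per 100 kb of window (vertical axis) for the 10 members, 37 other lectin-like genes of chromosome 6 and 22 receptor signalling genes. The axis labels the lectin-like group as genes of the complex. Each point is 1 gene, black bars are group medians and the dashed line is the median of all genes. The members lie between 6.15 and 15.7, all above the dashed line at 5.41, and the other lectin-like genes spread from 0 to 24.8.

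Fold enrichment over the 55 regions had a median of 8.34, and over all regions of the list 8.09. The member regions ran from 3.16 to 18.7. Regions at the members were a little narrower than the list, with medians of 400 and 473 bp. They were also poorer in G and C, with medians of 42.0% and 49.7%. In RefSeq's promoter table for GRCm38.p6, 9 of the 10 members, all but Clec4n, had 11 entries. The median G and C content of those entries was 40.0%, against 52.7% over 32851 entries.

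By any annotated TSS, 9 of the 10 members had a summit within 1000 bp, the exception being Clec9a. Over all genes the share was 62.7%. By the start sites of protein-coding transcripts alone, 8 of the 10 had one, and Clec1b joined Clec9a. The share over the 21671 genes with a protein-coding transcript was then 61.4%. In each replicate's own list 7 of the 10 had such a region, against 60.0% of genes in replicate 1 and 56.6% in replicate 2. The same 7 were in both lists, against 56.1% of genes, and Clec4d was the one lost. Among 10 genes a single gene moves the share by 10 percentage points.

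The DCIR genes, named for dendritic cell immunoreceptor, included the 2 highest promoter folds of the members. Clec4a3 encodes DCIR3, which lacks the inhibitory tyrosine motif. At its promoter the fold was 18.7 in the series-level list, 18.5 in replicate 1's own list and 16.4 in replicate 2's. That fold exceeded 99.3% of all regions, and the summit lay 53 bp upstream of a start site. Clec4a1 encodes DCIR4, likewise without the motif. At its promoter the fold was 16.7, with 16.0 and 14.8 in the lists of replicates 1 and 2, and its summit lay 222 bp upstream of the only start site. Clec4a2 encodes the inhibitory DCIR1. Its promoter region had a fold of 10.9, with 11.0 and 9.97 in the replicates, 2 bp upstream of an internal start site of a protein-coding transcript. That site lies 16.9 kb inside the GENCODE gene body, and the summit was 0.624 kb downstream of the RefSeq start. All 3 genes were thus open at a promoter in both replicates.

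Distal regions accompanied these promoters. A region 10.8 kb upstream of Clec4a2 had a fold of 15.9, above that gene's own promoter, with 16.1 and 13.3 in replicates 1 and 2. A region 5.55 kb upstream of Clec4a3 had a fold of 14.6, with 14.6 and 12.2 in the replicates. One just past the 3′ end of Clec4a1 had a fold of 10.4. Within Clec4a3, an intron region with a fold of 9.68 was in the list of replicate 1 only, where its fold was 10.2. Within Clec4a2, intron regions at 3.09 and 3.89 kb after a start site had folds of 3.16 and 6.48, and the first was in neither replicate's list. The promoter of Clec4a4, which encodes the inhibitory DCIR2, had a fold of 17.0, with 15.2 and 13.2 in the replicates.

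Mincle, encoded by Clec4e, binds a mycobacterial cord glycolipid and signals through the Fcer1g chain. The Clec4e promoter region had a fold of 11.6, with 11.7 and 10.5 in replicates 1 and 2, and its summit lay 78 bp upstream of a start site. A second region, 0.705 kb downstream of a start site, had a fold of 5.65. Both regions were in both replicates' lists.

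Dectin-2, encoded by Clec4n, binds fungal mannans and uses the same chain. The Clec4n promoter region had a fold of 7.15, with 8.08 and 5.43 in the replicates, and the summit lay 7 bp upstream of a start site. A weaker region 392 bp upstream had a fold of 4.50 and overlapped the same row of replicate 1, but none of replicate 2. The strongest regions at Clec4n lay away from its promoter. One 2.12 kb upstream had a fold of 13.6, with 13.2 and 12.4 in the replicates. One in the last part of the gene, 14.4 kb from a start site, had a fold of 12.4, with 13.3 and 11.9.

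MCL, encoded by Clec4d, is a partner of Mincle and lies between Clec4n and Clec4e. Its promoter region had the lowest fold of the 8 found at coding starts, with a fold of 3.65, above only 2.30% of all regions. It was in neither replicate's own thresholded list, and appeared in the looser lists of both with folds of 3.70 and 3.47. The regions around it were stronger. The one 9.10 kb upstream had a fold of 11.5 and the one 1.72 kb upstream 8.81. A pair inside the gene, near an internal start site of a retained-intron transcript, had folds of 9.73 and 9.74. All 4 were in both replicates' lists. The windows of Clec4n, Clec4d and Clec4e all contain these 4 regions, so they cannot be assigned to 1 of the 3 genes by position.

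MICL, encoded by Clec12a, is an inhibitory receptor that senses uric acid crystals. Its promoter region had a fold of 10.8, with 11.1 and 10.3 in replicates 1 and 2. The summit lay 85 bp downstream of an internal start site, 0.195 kb upstream of the RefSeq start and 7.36 kb inside the GENCODE gene body. Regions on both sides were stronger. One 8.69 kb upstream of the gene body, nearest to the start of 4922502D21Rik, had a fold of 13.7, with 13.4 and 12.7 in the replicates, and held a PU.1 and a RUNX match. One 9.95 kb beyond the gene's 3′ end, nearest to Clec12b, had a fold of 14.7, with 14.8 and 11.9. Between these lay 7 further regions in or near the gene, with folds from 3.65 to 9.25.

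Dectin-1, encoded by Clec7a, binds fungal beta-glucans and carries an activating tyrosine motif in its own tail. Its promoter region had a fold of 7.36, with 7.42 and 7.72 in replicates 1 and 2. Its summit lay 60 bp upstream of a start site. An intron region 1.20 kb into the gene was similar, with a fold of 8.34 and 7.68 and 7.47 in the replicates. Of the 11 regions in its window, 4 were in neither replicate's list, the most of any member. They had folds of 4.28 to 5.35 and lay 1.94 and 4.13 kb upstream, in an exon at the 3′ end, and at Olr1. GENCODE vM21 types Clec7a as a polymorphic pseudogene, and RefSeq as protein-coding.

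CLEC-2, encoded by Clec1b, binds podoplanin and is best known from platelets and megakaryocytes. No summit lay within 1000 bp of the start of a protein-coding Clec1b transcript in the thresholded, ranked or looser replicated series-level list, or in either replicate's own list. The nearest region lay 5.00 kb downstream. Its fold was 5.84, and it was in the list of replicate 2 only, with a fold of 5.22. A neighbour with a fold of 4.54 was in neither list. Both lay within 1000 bp of a start site of a retained-intron transcript, which is why Clec1b counted as open by any TSS.

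DNGR-1, encoded by Clec9a, binds actin filaments exposed by dead cells and marks the dendritic cells that cross-present antigen. The same lists held no summit within 1000 bp of a Clec9a start. A strong region lay 1.35 kb upstream, in an exon of the Clec1b annotation, with a fold of 11.8 and 12.0 and 10.1 in replicates 1 and 2. A region in a Clec9a exon had a fold of 8.47 and was also in both lists. The Clec1a intron region, at 16.0 the highest of this block, had folds of 16.4 and 13.9 in replicates 1 and 2. It falls in the windows of Clec1b, Clec9a and Clec7a.

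**Figure D4:**
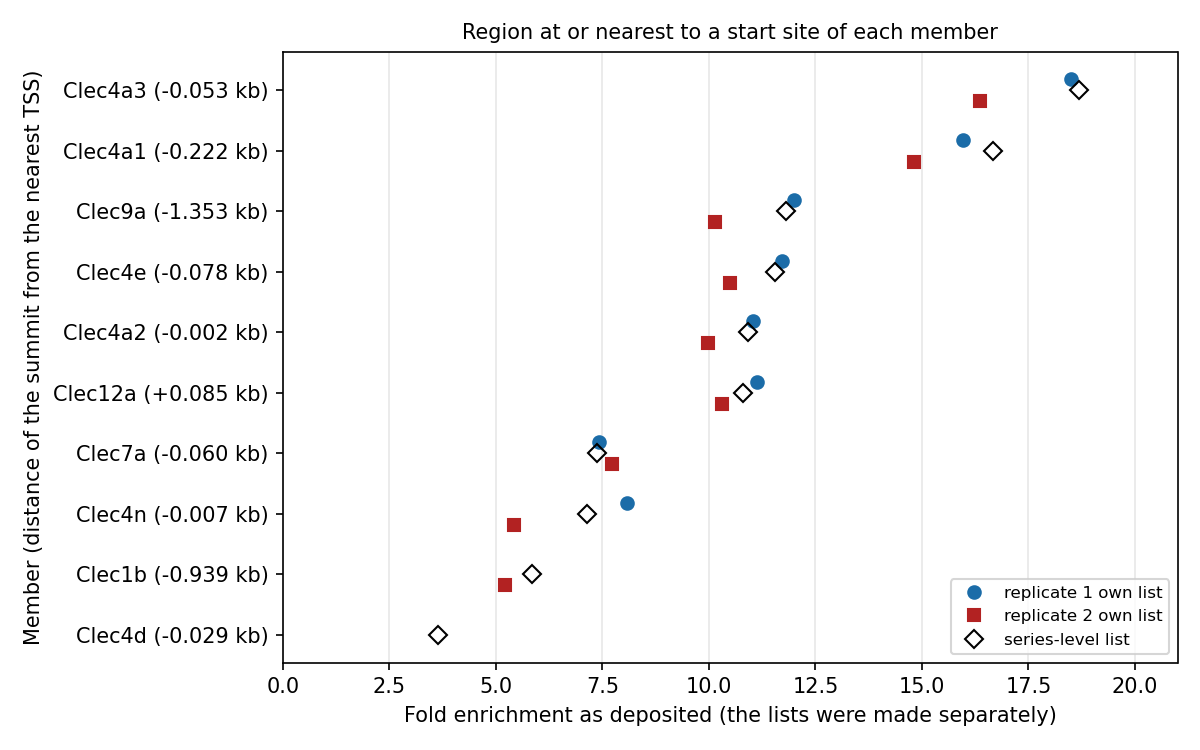
Fold enrichment (horizontal axis) of the region at, or nearest to, the start of a protein-coding transcript of each member. Values are from the series-level list (diamonds) and the own lists of replicate 1 (circles) and replicate 2 (squares). The labels give the summit's distance to the nearest annotated TSS, which for Clec1b is that of a retained-intron transcript. Clec4a3 and Clec4a1 stand above the other members in all 3 lists, and Clec4d, at 3.65, has no point from either replicate.

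Of the 55 regions, 16 were within 1000 bp of a TSS of the genes counted, 5 lay in other exons, 14 in introns and 20 between genes. The nearest TSS was a member's for 38 of the 55. These classes were not counted over the whole list, so the counts have no comparison. At the edge of the rule, the region just inside 30 kb was 29.2 kb from Clec4a1, near Necap1, and had a fold of 12.1. It held the only CTCF match of the 55 regions. The 2 nearest outside were at 31.7 kb, near Clec4b2, with a fold of 10.7, and at 34.5 kb, near Olr1, with 11.6.

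Both replicates' own lists held 38 of the 55 regions (69.1%), beside 66.1% of all regions. Replicate 1's list held 42 (76.4%), beside 81.9%. Replicate 2's list held 40 (72.7%), beside 69.4%. A further 4 were in replicate 1's list only and 2 in replicate 2's only. Neither list held 11 (20.0%), beside 14.7%. The shares at the members were thus within a few points of the whole list.

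Regions in both lists had folds of 5.65 to 18.7 with a median of 9.82. The 6 in a single list had folds of 4.50 to 9.68. Those in neither list had 3.16 to 5.81 with a median of 4.47. The ranges of the 3 groups overlap. Both looser lists held 9 of the 11 in neither list. Of the 38 shared regions, 28 had the higher value in replicate 1. Over all shared regions of the series this held for 92.1%, and the lists were made separately, so no difference between replicates was read from it. Few regions were missing from the series-level list. Replicate 1's own list had 1 more in the member windows, 21 bp upstream of a Clec1a start, with a fold of 6.52. Replicate 2's had 2 more, 8.20 kb upstream of Clec4d and 0.180 kb upstream of an internal Clec12a start, with folds of 4.77 and 5.28. The looser series-level list had 75 regions in the windows, and the 20 extra ones had folds of 2.36 to 6.65.

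Matches to PU.1 lay within 50 bp of 12 of the 55 summits (21.8%), beside 15.2% of all regions. CEBP matches lay at 9 (16.4%), beside 9.27%, and RUNX matches at 6 (10.9%), beside 6.21%. AP-1 matched at 3 (5.45%), beside 5.65%, and IRF at 3 (5.45%), beside 3.74%. CTCF matched at 1 (1.82%), beside 5.83%. At least 1 of the 6 was found at 30 of the 55 regions. The share of all regions with any of them was not counted, so this number has no comparison. The shorter PU.1 core lay at 22 (40.0%), beside 24.2%, a comparison chosen after seeing the data. Among the 10 windows at or nearest to the start of a member's protein-coding transcript, 8 held the core, all but those of Clec12a and Clec1b. The order of members and list depended on the window for 3 of the 6. Within 25 bp of the summit RUNX matched at 1.82% of member regions, beside 3.30% of the list, and PU.1 at 10.9%, beside 8.38%. Within 100 bp AP-1 matched at 16.4%, beside 9.30%, and IRF at 7.27%, beside 7.61%. With 55 regions, each of these counts rests on few sites, and a match is not evidence of binding.

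**Figure D5:**
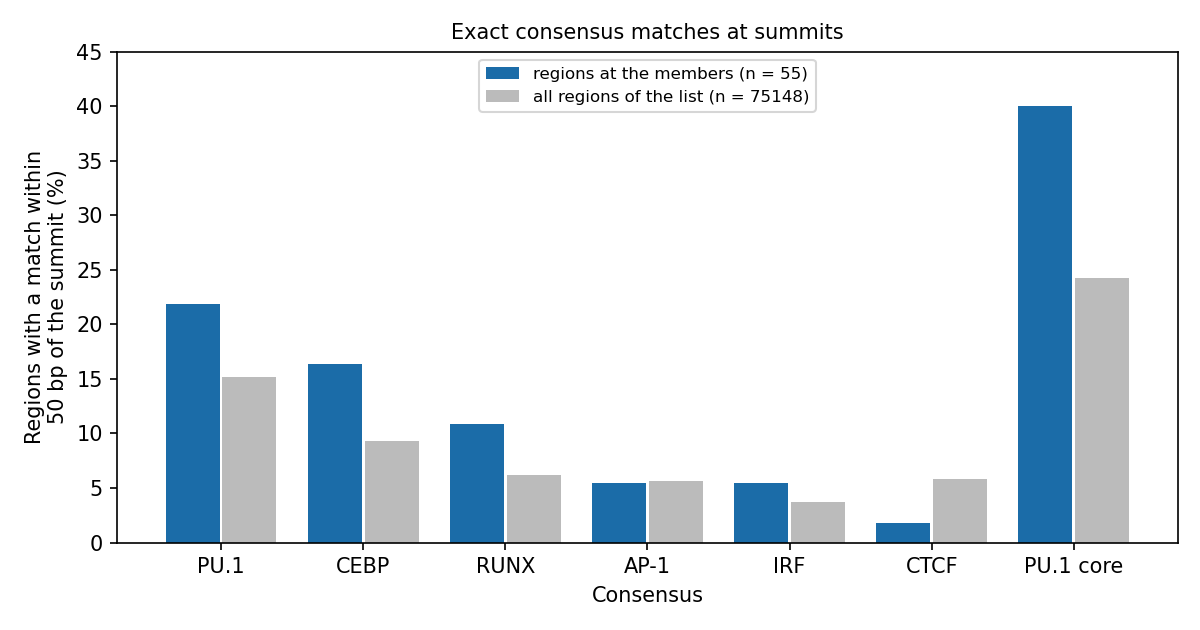
Percent of regions (vertical axis) with an exact match within 50 bp of the summit, for the 55 regions at the members (left bars) and all 75148 regions (right bars), by consensus. The PU.1, CEBP, RUNX and IRF bars of the members are the taller of their pairs, and AP-1 (5.45% and 5.65%) and CTCF are the shorter; RUNX, AP-1 and IRF change this order with the window searched.

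PU.1 matches in the Clec4 block were at the promoters of Clec4a1 and Clec4a2, in a Clec4a2 intron, upstream of Clec4a3, Clec4b2 and Clec4n, and inside Clec4d. The 5 CEBP matches there included the Clec4e promoter and the region 9.10 kb upstream of Clec4d. In the other block, PU.1 matches were upstream of Clec12a, Clec9a and Clec7a and at Olr1. None of the 6 consensus sequences was found at the strongest promoter, that of Clec4a3, or at the strong region upstream of Clec4a2. No match says only that these letters were not in the 101 bp searched.

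Tandem copies can make reads ambiguous, so each region was aligned to the genome. A second place with at least 90% identity over at least 50% of its length was found for 2 of the 55. Copies were not sought for the whole list, so this count has no comparison. The region 13.1 kb upstream of Clec4d, with a fold of 5.87, had a copy of 96.2% identity over 475 bp near Clec4b2, and the copy also held a region. A region at Olr1 had a copy of 95.3% over 295 bp that held none. The promoters of the Clec4a genes had no copy by that rule. The rule does not see shorter copies, and the Clec4a2 and Clec4a4 summit windows were identical at 94 of 100 aligned bases. Whether reads were ambiguous over such stretches was not tested.

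Of 22 signalling genes that serve these receptors, all 22 had a summit within 1000 bp of at least 1 start. This held by any TSS, beside 62.7% of all genes, and by protein-coding transcripts, beside 61.4%. Syk, the kinase, had a promoter fold of 10.4, with 10.2 and 9.43 in replicates 1 and 2. Card9, the adaptor, had 9.88, with 11.3 and 8.04. Fcer1g, the partner chain of Mincle, MCL and Dectin-2, had 6.40, with 6.86 and 5.66. Ptpn6, the phosphatase of the inhibitory members, had 9.40, with 9.89 and 8.70. Their windows had a median of 10.2 regions per 100 kb, beside 11.4 for the members.

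The other lectin-like genes listed, all on chromosome 6, were a mixed group. Of 37 matched, 16 (43.2%) had a summit within 1000 bp of a TSS, beside 9 of 10 members and 62.7% of all genes. Clec4a4, whose promoter was open, was not on that list. By protein-coding transcripts the counts were 14 of 37 and 8 of 10. Their windows had a median of 6.36 regions per 100 kb. Direct neighbours of the members differed too. Clec4b2, Clec1a and Clec12b had no promoter region but 7, 12 and 10 regions in their windows. Olr1, which encodes a receptor for oxidised lipoprotein, had a promoter fold of 11.6, and Clec4b1 had 9.25. Among the listed natural killer receptor genes, promoter regions were found at Klrd1 (15.7), Klrk1 (14.1), Klri2 (12.8), Klrb1f (8.42), Klre1 (7.43), Klrb1c (7.13) and Klrb1b (5.64). Those of Klrb1f and Klre1 were not within 1000 bp of the start of a protein-coding transcript. That of Klre1 was absent from replicate 2's own list, and that of Klrb1b from both. Klrb1, Klrb1a, Klrg1, Klrc1, Klrc2, Klrc3 and Klri1 had none. Of the 11 Klra genes, 3 had one: Klra2 (12.8), Klra17 (12.7) and Klra5 (11.5).

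The label of the cells was checked by the promoters of marker genes. Of 12 GMP markers, 11 had a promoter region, all but Prtn3, beside 62.7% of all genes. Their promoter folds included 13.9 at Ms4a3, 8.46 at Cebpa, 6.84 at Elane and 5.50 at Mpo. All 8 late neutrophil markers and all 7 monocyte and macrophage markers had one as well, and so did 5 of 6 dendritic cell markers. By protein-coding transcripts the late neutrophil count was 7 of 8, without Mmp9. The F13a1 region was in neither replicate's own list, and that of Retnlg was absent from replicate 1's. The open dendritic cell markers were Siglech (13.1), Flt3 (12.3), Itgax (10.8), Batf3 (7.47) and Zbtb46 (6.63), and Xcr1, found on the dendritic cells that bear Clec9a, had none. Of the megakaryocyte and platelet markers, Itga2b (14.1) and Pf4 (6.41) had one, and Gp9, Gp1bb and Ppbp had none. The Pf4 region was absent from replicate 1's own list. NK and T cell markers had 2 of 5, Prf1 (10.4) and Klrb1c (7.13), and B cell markers 3 of 5, Pax5 (12.8), Ebf1 (11.7) and Cd79b (7.31). Open promoters thus included markers of lymphoid and megakaryocyte lineages with folds as high as those of the GMP markers. An open promoter is not expression, and whether cells of other types contributed to a member's regions was not tested.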

How the data were processed

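Each replicate had its own region lists and the series had lists made from both, in mm10 per the submitters' file list. The values of each row were used as deposited: a fold enrichment (a ratio), a score, and a q value as −log10. In the ranked list, the rows that also stand in the thresholded list had a score of at least 540. Aligner, peak caller, any Tn5 shift and the denominator of the fold were not given in the sources used here. Read depth is unknown, so no interval was computed, and a region absent from a list only failed its threshold. In the ranked list 8 columns of single-replicate values were not used.

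From the series-level conservative list, rows overlapping by 1 bp were merged, keeping the summit and fold of the highest row. Regions were annotated with GENCODE vM21, whose chromosome 6 reference length is compatible with the files. A promoter was 1000 bp on either side of a TSS, and presence in a replicate's own list meant an overlap of 1 bp. Motifs were exact letters within 50 bp of a summit. Copies were sought with blastn 2.17.0. Windows were aligned with Biopython 1.88, using Python 3.11.15 and pysam 0.24.0. The counting was tested on simulated data. No test of significance was run. Every member was named, and other genes only where they lay in a member window or on a list. The members and lists were chosen with earlier results of these data known. Lists, windows, promoter widths, merging, overlap and motif windows were varied.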

Additional observations from a re-analysis of the deposited data

How the results depend on the processing

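The 55 regions became 30 in the 50% of the list with the higher folds, 89 with 100 kb windows and 19 in gene bodies alone. The median per member window was then 5.0, 16.5 and 2.0, against 8.5, and 4.0 with 10 kb windows. Leaving out replicate 1 or replicate 2, by using the other's own list, gave 42 regions either way, and a median per window of 7.0 and 7.5. It left 10 members with a region, 8 to 9 open member promoters, 22 open signalling promoters and 12 to 16 open promoters of other lectin-like genes. In that upper 50% the open promoters were 6 for the members, 15 of 22 for signalling genes and 10 of 37 for other lectin-like genes. The share of regions in both replicates' lists was 96.4% in the looser replicate lists and 96.7% in that upper 50%, against 69.1%. The median fold of 8.34 was 6.48 in the replicated list, 6.36 in the pseudoreplicated list, 10.9 in that upper 50% and 7.15 without merging. In the replicates' own lists it was 8.60 to 9.50. The PU.1 share of 21.8% was 10.9% within 25 bp of the summit and 40.0% with the 6-letter core, which was chosen after seeing the data. The RUNX share of 10.9% was 1.82% within 25 bp, and the AP-1 share of 5.45% was 16.4% within 100 bp. Set against the whole list under the same settings, a comparison added after seeing the data, PU.1 and CEBP stayed higher at the members and CTCF lower in all 4 alternatives. RUNX turned lower within 25 bp, AP-1 turned higher in all 4, and IRF turned lower within 100 bp. The causes were not tested, beyond the fewer or more bases and regions that each setting takes in. Comparisons of other results with the whole list or all genes were not rerun under the alternatives. No paired analysis was possible because the study has 1 group and no test. Depth is unknown, so what it limits cannot be given, and the 2 replicates give no spread for single regions beyond the pair of values printed.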
